A study of Mus musculus with 2 samples.

Results

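The genes described here are 8 feedback inhibitors ("brakes") of mitogen-activated protein kinase (MAPK) signalling, namely 6 dual-specificity phosphatases (Dusp1, Dusp2, Dusp4, Dusp5, Dusp6 and Dusp10) and 2 Sprouty genes (Spry1 and Spry2). They were taken by their symbols from the 32285 genes of a single-cell RNA count matrix, and all 8 were found. Of these, 7 had at least 100 unique molecular identifiers (UMIs, counted transcript molecules) and Spry2 had 40.

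T cell receptor signals reach the MAPKs ERK, JNK and p38 through kinase cascades that end in paired phosphorylation of each MAPK on a threonine and a tyrosine. A dual-specificity phosphatase removes both phosphates and so switches its MAPK off. Dusp1, Dusp2, Dusp4 and Dusp5 encode nuclear phosphatases that are known as inducible early genes, Dusp6 encodes a cytoplasmic phosphatase for ERK, and Dusp10 one that prefers JNK and p38. Sprouty proteins act further up, at the membrane, where they restrain the Ras to ERK pathway. In the thymus the strength of receptor signalling is known to guide both negative selection and entry into the regulatory T (Treg) lineage, for which Nr4a1 (an immediate-early gene of receptor signalling) and Tnfrsf9 (the costimulatory receptor 4-1BB) are widely used markers.

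The cells came from the thymus of 2 C57BL/6 mice, 1 carrying the Foxp3eGFP reporter alone and 1 carrying the same reporter together with loss of Lta (Foxp3eGFPxLta-/-, here Lta-/-), the gene of the cytokine lymphotoxin alpha. Both mice thus share the reporter, and their age is not given in the sources used here. From CD8- and CCR6- thymocytes with CD4 and CD3e on their surface, the sort took 20000 live cells per genotype that stained for CD25 (encoded by Il2ra), showed the reporter or did both. They were tagged by genotype with an antibody hashtag, pooled and captured in 1 well with 10x Genomics 3' v3.1 chemistry. With 1 mouse per genotype there is no replicate error and no test was made. Every interval below is an exact 95% interval for counting error only, so it holds neither the variation between mice nor that between cells.

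Of 4798 barcodes, 4638 cells were kept, with 712 to 52968 UMIs per cell and a median of 5555. Hashtags assigned 2209 cells to the Foxp3eGFP mouse and 2244 to the Lta-/- mouse, at medians of 5547 and 5395 UMIs. Another 185 cells carried both hashtags, at a median of 10532 UMIs, and entered only the comparisons that pool genotypes. Lta itself gave 509 UMIs in the Foxp3eGFP cells and 72 in the Lta-/- cells. Cd3e was detected in 95.2% of the cells and Cd4 in 60.1%. Of the genes sorted against, Cd8a was detected in 2.72%, Cd8b1 in 14.8% and Ccr6 in 2.50%. Foxp3 was detected in 20.5% and Il2ra in 22.4%, although every sorted cell was positive for at least 1 of the gate proteins. A cell without a Foxp3 or Il2ra UMI is therefore not a cell without the protein. A cluster of 119 cells (cluster 8) was led by plasma cell, macrophage and antigen presentation genes (Mzb1, Lyz2 and C1qb among them), which go against the sort. It was mixed, with 9 of 10 double-positive thymocyte, 5 of 7 gamma-delta T and 11 of 12 proliferation markers at least 1.5-fold higher as well.

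Dusp2 gave 7040 UMIs and was detected in 56.1% of cells. Dusp5 gave 2491 UMIs in 25.8% of cells and Dusp10 gave 1801 in 27.6%. The counts were lower for Dusp4 (795 UMIs, 11.8% of cells), Dusp1 (658, 10.95%) and Dusp6 (555, 9.94%), and Spry1 gave 257 UMIs in 4.01% of cells. Spry2, with 40 UMIs in 28 cells (0.604%), lay close to the detection limit throughout. Capture differs between transcripts, so these numbers describe detection and do not rank the genes by level. After each cell was thinned to 3000 UMIs, which 4325 cells allowed, 38.2% of cells had no UMI of any of the 8 genes. That share was 10.7% among cells with both Nr4a1 and Tnfrsf9 UMIs and 44.7% among cells with neither.

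In the RefSeq table of the build GRCm38.p6 the members lie on 8 different chromosomes: Dusp1 at chr17:26505591-26508472, Dusp2 at chr2:127336159-127338377, Dusp4 at chr8:34807610-34819894, Dusp5 at chr19:53529145-53541809, Dusp6 at chr10:99263231-99267489, Dusp10 at chr1:184034381-184075636, Spry1 at chr3:37639947-37644599 and Spry2 at chr14:105891947-105896819. Dusp6 overlaps the predicted gene Gm34921, so its UMIs carry that uncertainty. Promoter sequences were given for 7 of the 8 genes. In the 250 bases before each start, motifs were searched on both strands for the cyclic AMP response element (CRE, TGACGTCA), its shorter core (TGACG, which lies inside the full CRE), the CArG box bound by serum response factor, AP-1 (TGANTCA), EGR (GCGNGGGCG), ETS (CCGGAA) and NF-kB sites. Only 3 members held any of them, and their promoters are shown because all 3 are inducible genes that differ between the cells compared below. Capitals mark the CRE and CRE core in Dusp1, the CArG boxes in Dusp5 and the EGR motif in Dusp2.
Dusp1, chr17:26508473-26508722, minus strand: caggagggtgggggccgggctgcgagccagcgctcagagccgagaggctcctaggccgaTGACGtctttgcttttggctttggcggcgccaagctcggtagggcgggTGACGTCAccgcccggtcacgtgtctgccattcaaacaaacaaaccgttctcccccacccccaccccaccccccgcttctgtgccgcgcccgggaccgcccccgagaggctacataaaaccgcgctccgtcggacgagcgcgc
Dusp5, chr19:53528895-53529144, plus strand: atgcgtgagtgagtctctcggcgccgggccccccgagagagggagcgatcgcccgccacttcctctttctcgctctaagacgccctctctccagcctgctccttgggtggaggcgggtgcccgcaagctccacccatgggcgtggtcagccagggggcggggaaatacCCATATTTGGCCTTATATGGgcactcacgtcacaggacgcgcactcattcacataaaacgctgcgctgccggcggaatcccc
Dusp2, chr2:127335909-127336158, plus strand: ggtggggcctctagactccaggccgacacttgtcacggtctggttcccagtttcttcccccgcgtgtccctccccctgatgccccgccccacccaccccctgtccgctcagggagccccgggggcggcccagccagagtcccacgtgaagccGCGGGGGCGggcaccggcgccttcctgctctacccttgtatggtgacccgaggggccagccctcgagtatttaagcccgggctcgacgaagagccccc
Dusp1 had the full CRE from 143 bases before its start and a further core from 191 bases before it. Dusp5 had 2 CArG boxes side by side, from 82 and 72 bases before its start, and a CRE core on the other strand from 55 bases before it. Dusp2 had an EGR motif from 98 bases before its start. Among 32851 promoters of the same length, 1.55% held a full CRE, 17.8% the core, 1.47% a CArG box, 4.70% the EGR motif, 6.75% the AP-1, 12.0% the ETS and 7.25% the NF-kB motif, and 6 promoters (0.0183%) held 2 or more CArG boxes. A match describes letters and not a bound site.

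The first comparison asked how the brakes differ between cells with and without transcripts of receptor signalling. Of the cells, 2845 had a UMI of neither Nr4a1 nor Tnfrsf9, 240 of Nr4a1 only, 1201 of Tnfrsf9 only and 352 of both. Levels are given as counts per 1000000 UMIs summed over the cells of a class (CPM), and a gene was counted as higher or lower when its CPM differed at least 1.5-fold (0.58 on the log2 scale) with at least 100 UMIs in the pair of classes. In cells with both transcripts, 6 of the 7 members tested were higher than in cells with neither, all but Dusp6, where 11.9% of all 9122 genes tested were higher. In cells with Nr4a1 only the same count was 6 of 7 (4.73% of 9012 genes), and in cells with Tnfrsf9 only it was 4 of 7, namely Dusp1, Dusp4, Dusp5 and Spry1 (6.24% of 9545 genes). No member was lower by 1.5-fold in any of these comparisons, where 12.7%, 5.69% and 6.62% of genes were.

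**Figure D1:**
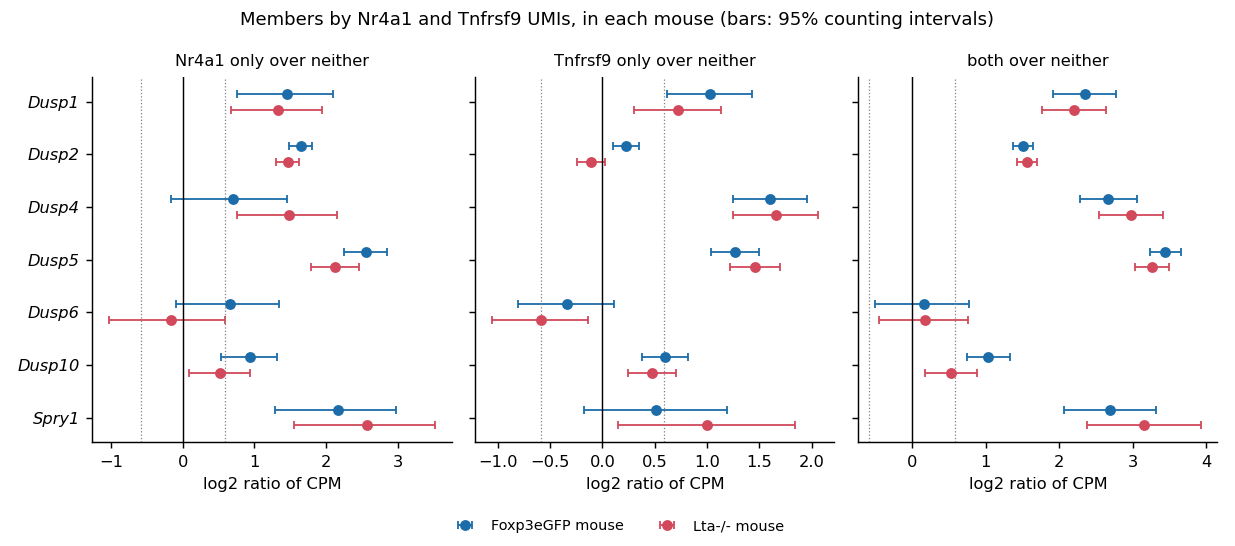
Log2 ratios of CPM for 7 members in cells with Nr4a1 only, Tnfrsf9 only or both transcripts over cells with neither (x axes), drawn apart for the Foxp3eGFP mouse (blue) and the Lta-/- mouse (red) with 95% counting intervals. The solid line marks no difference and the dotted lines 1.5-fold. Dusp5 reached 3.44 and 3.26 in cells with both transcripts, while Dusp6 lay near 0 in both mice.

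Dusp5, the nuclear phosphatase specific for ERK, showed the widest range. Its level in the Foxp3eGFP mouse was 33.4 CPM in cells with neither transcript, 80.2 with Tnfrsf9 only, 195 with Nr4a1 only and 362 with both. The Lta-/- mouse gave 31.6, 86.9, 138 and 303 CPM in the same order, so the classes kept the same order in both mice with no overlap of their intervals. Pooled, Dusp5 was higher by 3.33 on the log2 scale with both transcripts (95% interval 3.18 to 3.48), by 2.33 with Nr4a1 only (2.12 to 2.55) and by 1.33 with Tnfrsf9 only (1.17 to 1.49). In thinned cells Dusp5 was detected in 50.4% of cells with both transcripts, 33.3% with Nr4a1 only, 19.9% with Tnfrsf9 only and 9.16% with neither.

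Dusp2, a nuclear phosphatase known from activated lymphocytes, followed Nr4a1 and hardly Tnfrsf9. In the Foxp3eGFP mouse it stood at 166 CPM with neither transcript, 195 with Tnfrsf9 only, 520.0 with Nr4a1 only and 474 with both. The Lta-/- mouse gave 184, 170.2, 507 and 543 CPM. The cells with Tnfrsf9 alone thus lay near those with neither, above them in the Foxp3eGFP mouse (log2 ratio 0.23, 0.10 to 0.35) and not apart from them in the Lta-/- mouse (-0.11, -0.25 to 0.03). Pooled, Dusp2 was higher by 1.58 on the log2 scale with Nr4a1 only (1.47 to 1.69), 2.83-fold higher with both (95% interval 2.65-fold to 3.01-fold) and different by 0.08 on the log2 scale with Tnfrsf9 only (-0.01 to 0.16). Set directly against cells with Tnfrsf9 only, cells with Nr4a1 only were higher by 1.51 for Dusp2 (1.39 to 1.63), 1.00 for Dusp5 (0.79 to 1.21) and 0.82 for Dusp6 (0.27 to 1.35). These were 3 of the 6 members that could be tested in that pair, with 7.46% of 7772 genes higher, and none was lower (9.52% of genes). Dusp1, at 0.55 (0.09 to 0.99), lay just under 1.5-fold and passed it in thinned cells (0.59), with 2 UMIs required (0.90), as a mean of single cells (0.60), without the proliferating cluster (0.60) and in the Lta-/- mouse alone (0.61). Ratios in thinned cells, here and below, use classes remade from the thinned counts.

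Dusp4, a nuclear phosphatase for ERK and JNK, leaned towards Tnfrsf9 instead. Its CPM in the Foxp3eGFP mouse was 13.0 with neither, 21.0 with Nr4a1 only, 39.3 with Tnfrsf9 only and 82.3 with both. In the Lta-/- mouse it was 10.7, 29.9, 33.7 and 84.0. The pooled log2 ratio over neither was 2.73 with both (2.45 to 3.00), 1.55 with Tnfrsf9 only (1.29 to 1.81) and 1.16 with Nr4a1 only (0.66 to 1.64). Cells with Nr4a1 only had less Dusp4 than cells with Tnfrsf9 only in the Foxp3eGFP mouse (-0.91, -1.75 to -0.17), but the interval held 0 in the Lta-/- mouse (-0.17, -0.88 to 0.48) and over all cells (-0.38, -0.88 to 0.08). That pooled value passed 1.5-fold in thinned cells (-0.71) and when a positive cell needed 2 UMIs (-0.75).

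Dusp1, which acts on p38, JNK and ERK, was higher with each transcript and highest with both. It measured 12.0 CPM with neither, 24.4 with Tnfrsf9 only, 32.8 with Nr4a1 only and 61.0 with both in the Foxp3eGFP mouse, and 14.0, 23.0, 35.1 and 64.6 CPM in the Lta-/- mouse. The pooled log2 ratios over neither were 0.84 (0.56 to 1.12), 1.39 (0.93 to 1.82) and 2.21 (1.91 to 2.50). The 2 mice overlapped in every class. Dusp1 is itself a gene that tissue handling is known to induce, and the sum of an 18-gene list of dissociation and stress genes moved with the classes, from 4909 CPM with neither to 6083 with Nr4a1 only, 6767 with Tnfrsf9 only and 7533 with both. The median log2 ratio of its tested genes over neither was 0.36, -0.10 and 0.54 in that order. With Tnfrsf9 only, Hspe1, Hsp90aa1 and Hsp90ab1 were higher and Jun, Egr1 and Zfp36 lower. The part of this list in the results was not tested. Depth moved the same way, with median UMIs per cell of 5152, 5529.5, 6222 and 6759.

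Dusp6, the cytoplasmic ERK phosphatase, stayed under 1.5-fold against cells with neither transcript in each class. In the Foxp3eGFP mouse it was 16.6 CPM with neither, 13.1 with Tnfrsf9 only, 26.2 with Nr4a1 only and 18.4 with both, and in the Lta-/- mouse 21.9, 14.5, 19.5 and 24.8. The pooled log2 ratio was 0.18 with both (-0.23 to 0.58), which leaves out a 2-fold difference in either direction for counting error. With Nr4a1 only it was 0.38 (-0.14 to 0.86), and it passed 1.5-fold in thinned cells (0.72, 0.02 to 1.36) and in the Foxp3eGFP mouse alone (0.66, -0.09 to 1.34). With Tnfrsf9 only it was -0.45 (-0.76 to -0.14), a difference below 1.5-fold that became -0.69 when a positive cell needed 2 UMIs and was -0.59 in the Lta-/- mouse alone.

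Dusp10, the phosphatase for JNK and p38, was higher with either transcript, by less than Dusp1, Dusp4 or Dusp5. Its levels in the Foxp3eGFP mouse were 46.0 CPM with neither, 69.7 with Tnfrsf9 only, 87.8 with Nr4a1 only and 94.3 with both. The Lta-/- mouse had 48.9, 68.0, 70.2 and 70.8 CPM, where the 3 positive classes overlapped. The pooled log2 ratios over neither were 0.50 (0.35 to 0.66), 0.74 (0.46 to 1.02) and 0.80 (0.59 to 1.01), the first of them below 1.5-fold, though it passed in thinned cells (0.63) and in the Foxp3eGFP mouse alone (0.60). In the Lta-/- mouse alone the value with both was 0.53 (0.17 to 0.88) and with Nr4a1 only 0.52 (0.08 to 0.93), both below it too.

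Spry1, an inhibitor of Ras to ERK signalling, stood at 5.28 CPM with neither, 7.55 with Tnfrsf9 only, 23.6 with Nr4a1 only and 34.0 with both in the Foxp3eGFP mouse. In the Lta-/- mouse it stood at 3.29, 6.58, 19.5 and 29.2. Its level was thus highest in the cells with both transcripts, followed by those with Nr4a1 only, in each mouse, with overlapping intervals. The pooled log2 ratios over neither were 0.69 with Tnfrsf9 only (0.18 to 1.19), 2.28 with Nr4a1 only (1.65 to 2.89) and 2.86 with both (2.40 to 3.32), on 61, 33 and 88 UMIs against 75. The first of these was 0.32, below 1.5-fold, as a mean of single cells. Spry2 had 13 UMIs in cells with neither transcript and 11 in the far fewer cells with both, a log2 ratio of 2.39 (1.09 to 3.66) that falls under the minimum of 100 UMIs and was not counted.

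The number of signal transcripts in a cell was described next, in cells thinned to an equal 3000 UMIs. Cells with 0, 1, 2 and 3 or more Nr4a1 UMIs numbered 3950, 198, 86 and 91. Dusp5 climbed over these from 58.2 to 276, 318 and 473 CPM, and Dusp1 from 17.8 to 52.2, 65.9 and 91.6. Dusp2 went from 191 to 512 and 841 and then stood at 788, where the last 2 intervals overlap. Spry1 stayed at 6.16 and 8.42 CPM with 0 and 1 Nr4a1 UMIs and was 50.4 and 58.6 with 2 and with 3 or more, on 13 and 16 UMIs. Dusp6 went from 20.7 CPM to 28.6, 34.9 and 36.6, and all 4 intervals overlap. By Tnfrsf9 UMIs, Dusp5 went from 54.6 to 103, 161 and 264 CPM and Dusp4 from 15.8 to 42.2, 44.4 and 67.5. Dusp2 showed 214, 257, 255 and 348 CPM there, a shallower course than by Nr4a1.

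**Figure D2:**
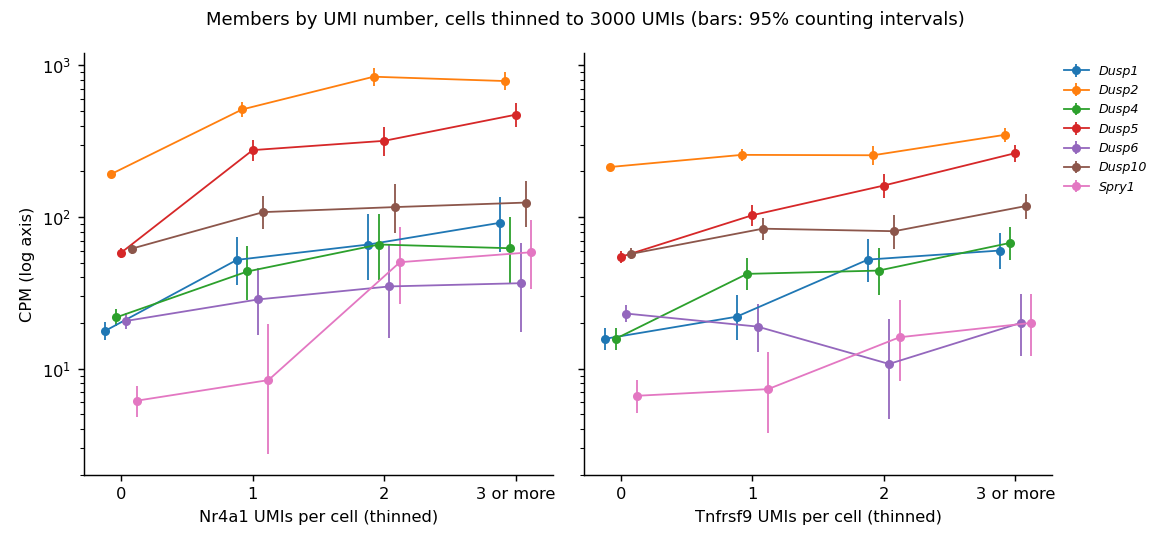
CPM of 7 members (log axis) in cells thinned to 3000 UMIs, by the number of Nr4a1 UMIs (left) or Tnfrsf9 UMIs (right) that a thinned cell had, with 95% counting intervals. Dusp5 (red) and Dusp2 (orange) climb with Nr4a1 UMIs, from 58.2 to 473 CPM and from 191 to 788 CPM, and Dusp6 (purple) stays between 20.7 and 36.6.

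The second comparison followed the transcripts of the sort gate. Neither Foxp3 nor Il2ra was detected in 3073 cells, Foxp3 only in 524, Il2ra only in 615 and both in 426. Against cells with neither, cells with Il2ra only had 4 of the 7 tested members higher, Dusp1, Dusp4, Dusp5 and Spry1 (4.90% of 9461 genes). Cells with both had 3 higher, Dusp4, Dusp5 and Spry1 (5.91% of 9377 genes), and cells with Foxp3 only had 1, Dusp4 (5.80% of 9384 genes). No member was lower by 1.5-fold, where 6.44%, 11.8% and 11.7% of genes were. Set against cells with Foxp3 only, cells with Il2ra only had the same 4 members higher (11.3% of 6777 genes) and none lower (6.23%). The smallest of these ratios, 0.64 for Dusp4 (0.29 to 1.01), was below 1.5-fold with 2 UMIs required (0.22) and in the Foxp3eGFP mouse alone (0.57), and that for Spry1, 1.56 (0.83 to 2.36) on 102 UMIs, was 0.35 on 28 UMIs in thinned cells.

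**Figure D3:**
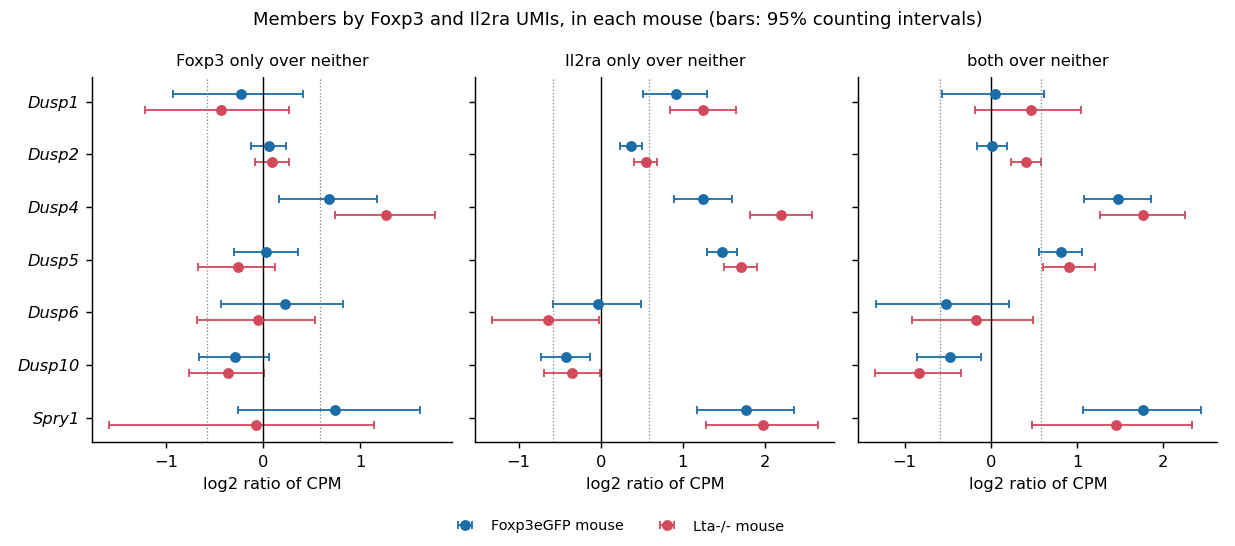
Log2 ratios of CPM for 7 members in cells with Foxp3 only, Il2ra only or both transcripts over cells with neither (x axes), by mouse (Foxp3eGFP blue, Lta-/- red) with 95% counting intervals and dotted lines at 1.5-fold. Dusp4 lies to the right of 0 in all 3 panels, and Dusp10 to the left, at pooled ratios of 0.98, 1.62 and 1.59 against -0.36, -0.42 and -0.54.

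Dusp4 was the member tied to both gate transcripts. Its level in the Foxp3eGFP mouse was 19.3 CPM with neither, 31.0 with Foxp3 only, 45.9 with Il2ra only and 53.6 with both. In the Lta-/- mouse it was 13.5, 32.6, 62.2 and 46.0. The cells with neither were lowest in both mice, and the intervals of the Il2ra and double classes overlapped. Pooled, it was higher by 0.98 with Foxp3 only (0.63 to 1.31), 1.62 with Il2ra only (1.37 to 1.87) and 1.59 with both (1.30 to 1.88). The ratio for Il2ra only differed between the mice by more than their intervals, at 1.25 (0.89 to 1.60) in the Foxp3eGFP and 2.20 (1.82 to 2.58) in the Lta-/- mouse, and that difference was not tested.

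Dusp5 and Spry1 followed Il2ra. Dusp5 in the Foxp3eGFP mouse was 64.2 CPM with neither, 65.7 with Foxp3 only, 179 with Il2ra only and 113 with both, and in the Lta-/- mouse 55.6, 46.3, 182 and 104. Cells with Foxp3 alone had nearly the level of cells with neither (0.02, -0.21 to 0.25). In thinned cells, with the classes remade from the thinned counts, they were lower by more than 1.5-fold (-0.63, -1.05 to -0.24). In the original classes, by contrast, thinned cells had a Dusp5 UMI in 13.78% with Foxp3 only and 13.80% with neither. With Il2ra only Dusp5 was higher by 1.49 (1.36 to 1.62) and with both by 0.82 (0.64 to 1.00). Spry1 was 5.76, 9.59, 19.7 and 19.7 CPM in that order in the Foxp3eGFP mouse and 4.81, 4.55, 19.0 and 13.2 in the Lta-/- mouse. Its pooled log2 ratio was 1.87 with Il2ra only (1.44 to 2.29) and 1.58 with both (1.05 to 2.09). In cells thinned to 3000 UMIs, with remade classes, these values were lower, at 0.84 for Dusp5 with Il2ra only. For Spry1 they were 0.72 and 0.89, where only 88 and 79 UMIs were left and both intervals held 0. In the original classes, thinned cells had a Spry1 UMI in 4.30% with Il2ra only, 4.09% with both and 1.37% with neither.

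Dusp1 was raised with Il2ra alone and not with both. It showed 19.0 CPM with neither, 16.2 with Foxp3 only, 35.8 with Il2ra only and 19.7 with both in the Foxp3eGFP mouse, and 18.4, 13.7, 43.9 and 25.4 in the Lta-/- mouse. The pooled log2 ratios were -0.35 (-0.84 to 0.10; -0.64 as a mean of single cells), 1.01 (0.74 to 1.27) and 0.12 (-0.29 to 0.52). Dusp2 differed little, at 0.12, 0.42 and 0.25. The sum of the dissociation and stress list was 5721 CPM with neither, 4860 with Foxp3 only, 6594 with Il2ra only and 5539 with both. That is the same order of classes as Dusp1 at both ends. The median log2 ratio of its tested genes did not keep this order, at 0.18, 0.22 and 0.13 over neither. With Foxp3 only, Fos (0.68) and Jun (0.81) were higher and Hsp90aa1 was lower (-0.78). The part of this list was not tested.

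Dusp10 was lower where gate transcripts were found, by less than 1.5-fold. Its CPM was 65.2 with neither, 53.1 with Foxp3 only, 48.5 with Il2ra only and 46.8 with both in the Foxp3eGFP mouse and 61.7, 47.8, 48.6 and 34.8 in the Lta-/- mouse. The pooled log2 ratios were -0.36 (-0.62 to -0.11), -0.42 (-0.64 to -0.21) and -0.54 (-0.81 to -0.28). The last passed 1.5-fold in 6 other settings, at -0.83 in the Lta-/- mouse alone, -0.60 with a threshold of 2 UMIs, -0.60 without the cells with both hashtags, -0.70 without the proliferating cluster, -0.80 in thinned cells and -0.84 as a mean of single cells. Dusp6 was at or below the level of cells with neither, at 0.00 (-0.43 to 0.42), -0.32 (-0.73 to 0.06) and -0.29 (-0.77 to 0.16). With Il2ra only it passed 1.5-fold in the Lta-/- mouse alone (-0.64, -1.33 to -0.02), and with both in thinned cells (-1.13, -2.60 to 0.01). Spry2 had 25, 3, 8 and 4 UMIs in the 4 classes, too few to compare.

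Lists of genes known from other cells moved with these classes. An 8-gene B or plasma cell list was at 493 CPM in cells with neither gate transcript and at 20.9 to 22.1 CPM in the others, and at 584 CPM in cells with neither signal transcript against 12.2 to 14.98. An innate-like T cell list was at 145 CPM with neither signal transcript and 647 with both, where its defining gene Zbtb16 was at 0. By gate transcripts it was at 150.0 CPM with neither, 159 with Foxp3 only, 343 with Il2ra only and 468 with both, and Zbtb16 was at 0 with Foxp3 only and with both. A gamma-delta T list was at 56.5 CPM with neither gate transcript, 18.7 with Foxp3 only, 99.8 with Il2ra only and 35.3 with both, and an NK or ILC (innate lymphoid cell) list at 55.0, 19.8, 86.7 and 13.9. These 3 lists were thus higher in the cells with Il2ra only than in those with neither gate transcript. Not all their genes were found there: Ncr1, Klrb1c and Klra8 of the NK or ILC list were at 0, and so Klrb1c of the innate-like T list. The innate-like T list also holds Xcl1, a leading gene of clusters 1 and 9 described below. Dusp1, Dusp4, Dusp5 and Spry1 were called higher in the same cells, and the part of the lists in those results was not tested. Without the mixed cluster 8, the number of members called was the same in all 9 comparisons, in each direction.

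When the gate and signal classes were crossed, the signal transcripts went with more Dusp5 within every gate class. Cells with Nr4a1 or Tnfrsf9 exceeded those with neither by 2.20 on the log2 scale among cells without gate transcripts (2.02 to 2.39), 1.30 with Foxp3 only (0.86 to 1.75), 2.02 with Il2ra only (1.72 to 2.34) and 1.48 with both (1.11 to 1.87). For Dusp4 the same ratios were 2.25 (1.88 to 2.62), 0.75 (0.14 to 1.37), 1.77 (1.24 to 2.33) and 0.98 (0.46 to 1.52). The Foxp3 transcript went with more Dusp4 even where no signal transcript was found: 25.5 CPM with Foxp3 only against 6.59 with neither gate transcript. Dusp10 stood at 49.9 CPM in cells without any of the 4 transcripts and at 105 in cells with both signal and no gate transcripts, but at 41.7 and 66.4 in the matching cells with both gate transcripts. The last of these classes held only 40 cells and 22 Dusp10 UMIs.

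**Figure D4:**
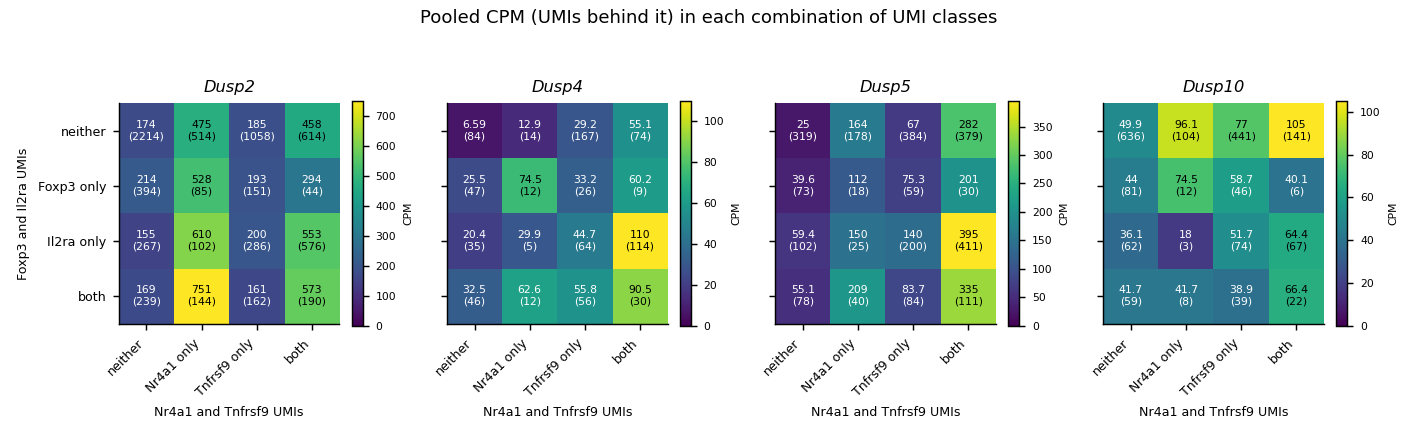
Pooled CPM of Dusp2, Dusp4, Dusp5 and Dusp10 (colour and number, each colour scale from 0) with the UMIs behind it in brackets, for each combination of Foxp3 and Il2ra UMIs (rows) with Nr4a1 and Tnfrsf9 UMIs (columns). Dusp2 is higher in both Nr4a1 columns than in the others in every row, Dusp5 is highest in cells with Il2ra only and both signal transcripts (395 CPM, 411 UMIs), and classes with few UMIs are imprecise.

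Clusters made without the members and without Foxp3, Il2ra, Nr4a1 and Tnfrsf9 gave a view that those 4 genes did not set, though other receptor-signal genes shaped it. There were 10 clusters, numbered from 0. Clusters 1 (276 cells, led by Lad1, Ccl4, Xcl1 and Gadd45b) and 9 (210 cells, led by Ccl4, Egr3, Cd83 and Nr4a3) resembled agonist-signalled precursors (agonist-signalled precursor-like) by 9 and 11 of 12 markers at least 1.5-fold higher. Cluster 9 also had 9 of 11 mature Treg markers higher. Nr4a1 and Tnfrsf9 were among the higher precursor markers of both clusters, and Foxp3 and Il2ra among the higher Treg markers of cluster 9. The names thus rest in part on those 4 genes, though the clustering does not. Dusp1, Dusp2, Dusp4, Dusp5 and Spry1 all had their highest level in cluster 1 or 9. Dusp5 was 261 CPM in cluster 1 and 221 in cluster 9, against 24.5 in the proliferating cluster 7 and 27.6 in cluster 2, which was mature CD4 single-positive-like and led by Rflnb, Pde3b and Igfbp4. After thinning, Dusp5 was found in 46.0% of the cells of cluster 1 and 6.91% of cluster 7, whose median depths were 7462 and 14488 UMIs. No cell type known to lack these genes was available, so background from free RNA was not measured. Dusp2 was 590.0 CPM in cluster 9 and 340.5 in cluster 1, where the remaining clusters, apart from the small clusters 4 and 8, ran from 164 to 225. Dusp4 was 81.6 and 63.7 CPM in clusters 9 and 1 and 4.39 in cluster 5, and Spry1 was 30.3 and 34.4 there and 0.549 (1 UMI) in cluster 5. Dusp1 was 48.5 and 57.3 CPM in clusters 9 and 1, and 9.63 in cluster 2.

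Dusp6 and Dusp10 stood out in other clusters. Dusp6 peaked at 49.9 CPM (40.2 to 61.3) in cluster 5, immature CD4 single-positive-like, led by Ccr9 and with all 8 markers higher. The next cluster, 3, had 24.1 (19.1 to 30.2), and the agonist-signalled cluster 1 had the lowest level of the clusters above 100 cells, 8.49 (5.19 to 13.1), with an interval that overlaps clusters 6 and 7. Both mice showed this order, with 41.5 CPM in cluster 5 and 10.5 in cluster 1 for the Foxp3eGFP mouse and 56.9 and 4.93 for the Lta-/- mouse. Dusp10 was 92.3 CPM in cluster 0 and 87.2 in cluster 5, with overlapping intervals. It was only 25.2 in cluster 6 and 26.8 in cluster 7. Cluster 0 was led by Colq, Arhgap20 and Tubb2b, with Tnfrsf9 and Ikzf2 also among its 10 leading genes. It held 541 of the 1201 cells with Tnfrsf9 only and 127 of the 352 with both signal transcripts. Of the 240 cells with Nr4a1 only it held 46, and of the 2845 with neither 262. Cluster 0 thus did not lie apart from the cells with Tnfrsf9. Cluster 6 (led by Gzmc, Cxcr3, Ccl5 and S100a4) was effector or recirculating Treg-like, with 8 of 10 innate-like T markers higher as well, and held 16 of the 40 Spry2 UMIs, 4.47 CPM (2.56 to 7.27).

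**Figure D5:**
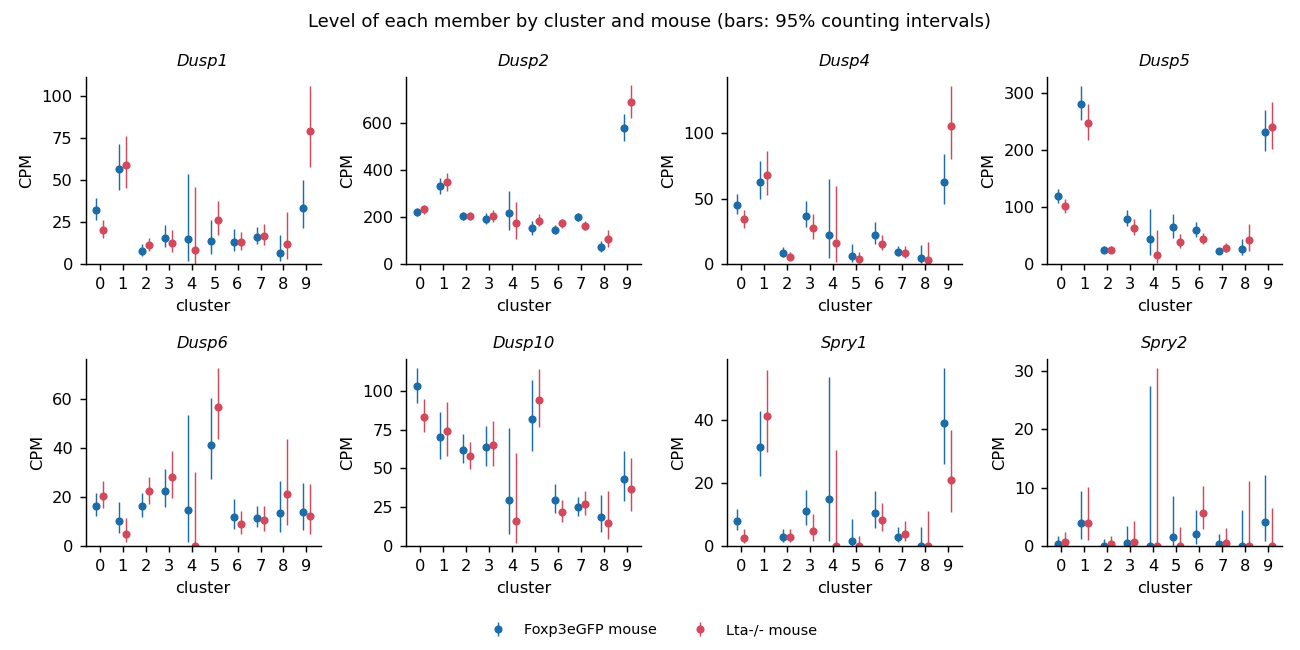
CPM of each member (y axes, separate scales from 0) in clusters 0 to 9 (x axes) for the Foxp3eGFP mouse (blue) and the Lta-/- mouse (red) with 95% counting intervals. Dusp2, Dusp4, Dusp5, Dusp1 and Spry1 stand up in clusters 1 and 9, Dusp6 in cluster 5 and Dusp10 in clusters 0 and 5. Cluster 4 (54 cells) is imprecise.

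Within single cells thinned to 3000 UMIs, several members were found more often in cells with Dusp5 than in cells without it. Among cells with a Dusp5 UMI, 10.7% also had Dusp1 against 4.63% of cells without Dusp5, and 11.7% against 5.38% had Dusp4. For Dusp2 these shares were 51.4% and 35.8%, and for Spry1 4.03% and 1.72%. Dusp6 was as frequent with as without Dusp5 (6.11% and 5.83%). It was found in 9.02% of cells with Dusp1 and 5.68% of those without. Dusp4, at 9.84% and 6.22%, went as far with Dusp1, and for both genes the intervals overlapped. Spry1 and Dusp10 were seldom found together, in 4 cells, with Dusp10 in 4.40% of the 91 cells with Spry1 and 16.6% of the others. The gene closest to each member over the 4638 cells, among 6080 genes and by Pearson r of log values, was Nr4a1 for Dusp5 (0.44) and Dusp2 (0.33), Ikzf2 for Dusp4 (0.27) and Gadd45b for Dusp1 (0.24). It was Nr4a3 for Spry1 (0.21), Cd160 for Spry2 (0.18), Satb1 for Dusp10 (0.16) and Egr1 for Dusp6 (0.14). The class genes were among those compared, so the values for Nr4a1 restate the comparison of classes made from its UMIs. Cells share 1 capture and their depth, and correlations this weak in sparse counts only order the genes.

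Other genes of the pathway were read from fixed lists in the same way. A list of 20 genes known to respond to ERK signalling shares Fos, Fosb, Junb, Ier2 and Egr1 with the dissociation and stress list. Of the 20 genes, 14 could be tested between cells with both signal transcripts and neither. Of these, 11 were higher and 0 lower (11.9% and 12.7% of all genes), with a list median of 1.35 on the log2 scale against 0.02 over all genes. Nr4a3, an orphan nuclear receptor, was higher by 5.28 and Egr3, a zinc finger factor, by 3.61. With Nr4a1 only, 12 of 13 were higher and 0 lower, where 4.73% and 5.69% of all genes were. With Tnfrsf9 only, 2 of 13 were higher (Nr4a3 and Bhlhe40) and 2 lower (Egr1 at -1.06 and Egr2 at -1.17), where 6.24% and 6.62% of all genes were. Of the 16 remaining Dusp, Spry and Spred genes only 6 had enough UMIs. With both signal transcripts 0 of them were higher and 1 was lower, near the 11.9% and 12.7% of all genes, and that 1 was Dusp7, a cytoplasmic ERK phosphatase (-0.87, -1.47 to -0.32). Spred1, a Sprouty-related inhibitor, was higher in cells with Il2ra only (0.73, 0.29 to 1.16) and with both gate transcripts (0.80, 0.29 to 1.29). Of the 18 genes of the ERK cascade itself, 17 could be tested, around a list median of -0.05 with both signal transcripts, and Sos2, an activator of Ras, was lower (-0.87). In the JNK and p38 list 7 of 18 were higher, led by Gadd45b (4.75) and Gadd45g (1.94), which encode activators of an upstream kinase, and 1 was lower (11.9% and 12.7% of all genes), with a median of 0.02 against 0.02 over all genes. Among 23 inhibitors of other signals 7 were higher, including Tnfaip3 (2.31), a brake on NF-kB, and Nfkbia (1.45), and 4 were lower, including Socs3 (-1.52), a brake on cytokine signalling, against the same shares of all genes, so that the lower count lay near the background.

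The third comparison was between the mice. No member differed 1.5-fold between Lta-/- and Foxp3eGFP cells in either direction, where 1.39% of 9660 genes were higher and 2.19% lower. Dusp5 was 86.5 CPM in the Foxp3eGFP and 73.6 in the Lta-/- mouse, a log2 ratio of -0.23 (-0.35 to -0.12), and Dusp4 was 27.8 and 23.6 (-0.23, -0.45 to -0.02). Spry1 was 9.59 and 7.12 (-0.43, -0.81 to -0.05), and in thinned cells its ratio passed 1.5-fold at -0.60, on 105 UMIs. Dusp6 lay the other way, at 16.2 and 20.1 (0.31, 0.06 to 0.56). For Dusp1 (0.01, -0.22 to 0.24), Dusp2 (0.03, -0.04 to 0.10) and Dusp10 (-0.07, -0.21 to 0.07) the intervals held 0 and left out a 1.5-fold difference. Averaged over clusters by their share of all cells, Dusp4 was at -0.42, Spry1 at -0.54 and Dusp6 at 0.13, below its pooled 0.31. These sizes cannot be told apart from a difference between any 2 mice.

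The mix of cells differed between the mice. Of the Foxp3eGFP cells 11.1% lay in cluster 6, against 16.0% of the Lta-/- cells. Cluster 5, where Dusp6 peaked, held 4.98% of the Foxp3eGFP and 8.91% of the Lta-/- cells, and the proliferating cluster 7 held 8.01% and 5.12%. The B or plasma list was at 679.7 CPM in the Foxp3eGFP mouse and 21.7 in the Lta-/- mouse. That sum of UMIs is not a share of cells. The mixed cluster 8, where most genes of the list were higher, held 2.54% of the Foxp3eGFP and 2.63% of the Lta-/- cells. In cells with both signal transcripts Dusp5 was again lower in the Lta-/- mouse (-0.26, -0.46 to -0.06), as it was with Nr4a1 only (-0.50, -0.88 to -0.13), but not with Tnfrsf9 only (0.12, -0.11 to 0.34). The difference between those classes was not tested. Dusp6 was higher in the Lta-/- mouse among cells with neither signal transcript (0.40, 0.08 to 0.73) and with neither gate transcript (0.37, 0.06 to 0.67). Within cluster 5 (110 Foxp3eGFP and 200 Lta-/- cells) its ratio was 0.45 (-0.22 to 1.16), so a difference was not detectable there at this depth. None of the 6 pathway lists had a gene past 1.5-fold between the mice except Jun, a stress-list gene, higher in the Lta-/- mouse (0.73, 0.46 to 1.01).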

How the data were processed

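Single-cell RNA of 1 pooled capture was read from 2 libraries, mRNA and hashtag, deposited by the authors as 1 matrix of whole-number UMI counts. Reads were processed with Cell Ranger 6.0.1 against mm10 (GRCm38), per the submitters' processing notes. The annotation release is not given in the sources used here. No column of per-sample values was left unused (0).

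A barcode was kept from 500 detected genes upward and with no more than 10% of its UMIs mitochondrial. A genotype needed 10 hashtag counts and 80% of them from 1 tag. The hashtag feature names give the genotype, and the protocol numbers the antibodies differently, so the names were used. Doublets were marked only where a cell carried both tags. Levels are summed UMI counts per 1000000. Intervals are exact, namely Poisson for a level, Clopper-Pearson for a share and conditional binomial for a ratio, and hold counting error only. The value of a ratio with 0 UMIs on 1 side used a floor of 3 counts, while levels and shares used no floor. Cells were clustered on 2000 variable genes, 30 principal components and 15 neighbours (Leiden resolution 0.6) with scanpy 1.11.5, without the members, the 4 class genes, Lta, Ltb, antigen receptor segments and sex-linked genes, and clusters were named from fixed markers. The 4 class genes were among those markers. The genes named beside each member were the 3 with the highest Pearson r among genes with 500 UMIs, of which the first is given, and up to 4 list genes per comparison past 1.5-fold. Python 3.11.15, numpy 2.4.6, scipy 1.17.1 and pandas 2.3.3 were used. The ratio script was tested on simulated data: in the genotype comparison, run on 9661 genes, the interval covered the truth for 95.5% of those simulated without a change. The simulated counts were Poisson, as the interval assumes, so this checks the calculation and not the variation between cells or mice. A true 1.5-fold change was called for 46% of genes there. Between cells with both signal transcripts and neither it was called for 54%, and 2.15% of unchanged genes were called. Members, classes and lists were chosen with earlier results of these data known. Results for some list genes are not reported here. The alternatives were other cell filters, thinning, thresholds, weighting, each mouse alone, and clusters or doublets left out. Ratios in thinned cells used UMI classes remade from the thinned counts, while shares of thinned cells by class used the original classes.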

Additional observations from a re-analysis of the deposited data

Results flagged for a closer look

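Of 144 ratios of the Lta-/- over the Foxp3eGFP mouse computed within classes and clusters, 11 had a 95% counting interval that left out 0 while the same gene had one on the other side of 0 elsewhere in the same grouping. These opposite directions rest on 1 mouse per genotype and the differences between them were not tested.

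Dusp4 was lower in the Lta-/- mouse among cells with neither gate transcript, at 13.5 against 19.3 CPM (log2 ratio -0.51, -0.84 to -0.19). Among cells with Il2ra only it was higher, at 62.2 against 45.9 (0.44, 0.04 to 0.84). By cluster, Dusp4 was lower in cluster 0 (-0.41, -0.80 to -0.03) and higher in the agonist-signalled cluster 9 (0.75, 0.17 to 1.34), where it stood at 106 against 62.8 CPM.

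Dusp1 showed the widest split. It was lower in cluster 0, at 20.3 against 32.3 CPM on 59 and 102 UMIs (-0.67, -1.16 to -0.19), and higher in cluster 9, at 79.2 against 33.5 CPM on 45 and 24 UMIs (1.24, 0.50 to 2.02).

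Dusp2 differed by small amounts. Its many UMIs make the intervals narrow, but these hold counting error only. It was higher in the Lta-/- mouse among cells with neither signal transcript (0.14, 0.04 to 0.25) and with both (0.20, 0.04 to 0.36), and lower with Tnfrsf9 only (-0.19, -0.34 to -0.04). In cluster 7 the ratio was -0.30 (-0.51 to -0.09) and in cluster 9 it was 0.25 (0.05 to 0.45).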

How the results depend on the processing

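No paired analysis was possible because each genotype is 1 mouse in 1 capture. No log2 ratio of a member that was called changed sign in any alternative run. Of 704 recomputed ratios 635 moved by less than their counting interval and 69 by more. The number of members called higher or lower moved past 1.5 times in 22 of 210 recomputed counts. Thinning also changed the UMI classes, which were remade from the thinned counts. In thinned cells 1 member (Dusp5) was lower with Foxp3 only over neither, 2 (Dusp6, Dusp10) with both gate transcripts, 1 (Dusp4) with Nr4a1 only over Tnfrsf9 only and 1 (Spry1) in the Lta-/- mouse, while 1 of 3 tested was higher with Il2ra only over Foxp3 only. With 2 UMIs required, 2 were higher with Foxp3 only (Dusp4, Spry1), 1 was higher with Il2ra only over Foxp3 only, and 1 was lower with both gate transcripts (Dusp10), with Tnfrsf9 only (Dusp6) and with Nr4a1 only over Tnfrsf9 only (Dusp4). As a mean of single cells, 1 was lower with Foxp3 only and 1 with both gate transcripts. In the Foxp3eGFP mouse alone 2 were higher with Il2ra only over Foxp3 only and 1 lower with Nr4a1 only over Tnfrsf9 only. In the Lta-/- mouse alone 2 were higher with Il2ra only over Foxp3 only, and 1 was lower with Il2ra only, with both gate transcripts and with Tnfrsf9 only. With doubly tagged cells or the proliferating cluster left out, 1 was lower with both gate transcripts. At a fold of 2, 0 were higher with Foxp3 only and 2 with Tnfrsf9 only. Apart from the settings by construction (fewer UMIs, cells or a stricter fold), the cause was not tested.

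At a resolution of 1.0 the highest cluster gave 47.0 CPM for Dusp1, 216 for Dusp5, 23.8 for Spry1 and 9.33 for Spry2. In thinned cells the highest cluster gave 667 for Dusp2, 66.0 for Dusp4, 313 for Dusp5, 33.8 for Spry1 and 6.08 for Spry2, and only 1 of the 3 genes most like Spry2 stayed the same. Spry2, with 40 UMIs, and Spry1 outside cells with Nr4a1 limit what this depth can resolve.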
